A study of Mus musculus with 6 samples.

Results

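The prostaglandin synthesis genes examined here were 9 genes taken by name, Pla2g4a, Ptgs1, Ptgs2, Ptges, Ptges2, Ptges3, Ptgis, Ptgds and Hpgd, out of the 54532 genes measured. Each of the 9 names matched 1 gene. RNA sequencing had been carried out on mouse cells labelled as vascular smooth muscle cells (VSMCs), the muscle cells of the arterial wall. They were isolated from mouse aorta, per the study. The control group, Ad-Con, held 3 libraries of wild-type cells that had received a control plasmid by adenoviral vector. The other group, Ad-PDK4, held 3 libraries of cells that had received, by the same route, a plasmid for overexpression of pyruvate dehydrogenase kinase 4 (PDK4, which inhibits the mitochondrial pyruvate dehydrogenase complex). Per the study, cells of both groups were also treated with angiotensin II, a treatment that the labels do not mention. The study calls the 3 libraries of a group biological replicates, but the labels do not say whether they came from separate animals or cultures, and p-values measure only the spread between these libraries. The comparison asked how the 2 groups differed in the expression of genes that make and remove prostaglandins.

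Prostaglandins are short-lived lipid signals made from arachidonic acid. A phospholipase A2 frees arachidonic acid from membranes, a cyclooxygenase converts it into the intermediate prostaglandin H2, and terminal synthases turn that intermediate into prostacyclin or prostaglandins of the D, E and F series. In arteries, prostacyclin relaxes smooth muscle and restrains platelets, and Ptgs2 is known as the cyclooxygenase gene that responds to inflammatory signals, whereas Ptgs1 is expressed more constantly.

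Pdk4, which checks the labels, had 679, 642 and 646 reads in Ad-Con and 490, 455 and 572 in Ad-PDK4, or 10.0 ± 0.469 and 7.48 ± 0.162 FPKM (mean ± SD, n = 3). It was thus lower in the libraries labelled Ad-PDK4 (log2 fold change -0.42, SE 0.06, limma adjusted p = 0.00114), and whether the gene's count includes reads from the plasmid is not known. The group names below are therefore those of the labels, and higher or lower always means in the libraries carrying the Ad-PDK4 label. FPKM is the number of fragments counted on a gene, scaled by gene length and library size, and the totals recovered from it were 17588942 to 21861872 reads on genes per library. Of 8 smooth muscle markers, Myh11, Tagln, Cnn1 and Des had at most 30 reads in any library, and 3 were tested. Mylk was also under the filter on low values, with 188, 168 and 122 reads in Ad-Con and 27, 28 and 24 in Ad-PDK4. With no filter its log2 fold change was -1.93 (limma adjusted p = 0.00197). Acta2, the smooth muscle actin, fell from 78.0 ± 0.95 to 36.2 ± 2.40 FPKM (log2 fold change -1.11, adjusted p = 5.3e-06), while Smtn (0.02, adjusted p = 0.839) and Lmod1 (-0.29, adjusted p = 0.357) did not pass the test. The 4 mesothelial markers summed to 244 to 261 FPKM in Ad-Con and 129 to 140 in Ad-PDK4, with Msln and Upk3b called lower, Lrrn4 called higher, and Wt1 under the filter with 15 to 21 against 63 to 76 reads. The 5 fibroblast markers summed to 292 to 343 against 236 to 280 FPKM, with Dpt (191.5 to 74.1 FPKM) and Lum called lower, Dcn (90.1 to 160.6 FPKM) called higher and Pdgfra not past the test (-0.05). In Ad-Con, Msln (221 FPKM) and Dpt had more FPKM than Acta2, so the cell type is given here only as labelled. The part of these markers in the results below was not tested, and in bulk libraries fewer cells of a type and less RNA per cell cannot be told apart.

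Of the 9 genes, 5 lie on mouse chromosome 2 (Ptgds, Ptges, Ptges2, Ptgs1 and Ptgis). Pla2g4a and Ptgs2 lie on chromosome 1, read away from each other with 138.74 kb between them, and the 3 genes annotated in that gap code for no protein. To show the sequence in front of the genes whose difference between the groups kept its direction and its call in each alternative analysis that tested them, the 250 bases before the RefSeq start (GRCm38.p6) of Ptgs2, Ptgs1 and Ptges are given, 5′ to 3′ on the gene's own strand. Ptgds also met this condition, but part of its window is annotated as untranslated region and is not printed. They are chr1:150099781-150100030 (plus strand), chr2:36230176-36230425 (plus strand) and chr2:30903298-30903547 (minus strand). Capitals mark matches to the motifs searched.
Ptgs2: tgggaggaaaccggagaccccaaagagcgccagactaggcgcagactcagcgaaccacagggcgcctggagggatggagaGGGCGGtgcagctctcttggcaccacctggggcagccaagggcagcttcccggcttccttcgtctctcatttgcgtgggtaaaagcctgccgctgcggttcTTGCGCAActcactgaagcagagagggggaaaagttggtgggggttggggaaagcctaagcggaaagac
Ptgs1: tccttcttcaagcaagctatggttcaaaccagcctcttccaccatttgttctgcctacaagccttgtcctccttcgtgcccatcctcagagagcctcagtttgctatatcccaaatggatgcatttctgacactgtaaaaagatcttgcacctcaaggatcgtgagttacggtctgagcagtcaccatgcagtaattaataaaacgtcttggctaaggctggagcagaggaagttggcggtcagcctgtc
Ptges: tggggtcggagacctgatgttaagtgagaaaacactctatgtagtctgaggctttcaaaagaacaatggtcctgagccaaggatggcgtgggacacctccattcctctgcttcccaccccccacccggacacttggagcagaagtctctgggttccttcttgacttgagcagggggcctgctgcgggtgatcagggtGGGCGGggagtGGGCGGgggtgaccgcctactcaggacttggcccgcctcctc

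The motifs were the TATA box (TATAAA), a C/EBP half-site pair (TTGCNNAA), the CRE core (TGACG), an E-box (CACGTG), the GC box (GGGCGG), a word for NF-kB and a word for the interferon-stimulated response element, each read on both strands. The Ptgs2 window held 1 GC box, with its first base 170 bases before the start, and 1 C/EBP match, 69 bases before the start, which reads the same on both strands. A C/EBP match was present in 9.56% of all 32851 windows of this length and a GC box in 32.7%. The Ptges window held 2 GC boxes, at 53 and 42 bases before the start, and the Ptgs1 window held none of the 7 motifs. The first base of the GC box in the Hpgd window lay 50 bases before the start, that of the E-box of Ptges2 77 bases, and Ptges3 had 3 GC boxes. The windows of Ptgds and of the upstream start of Pla2g4a held none, a further start of Pla2g4a had a TATA box match 200 bases before it, and Ptgis had no entry, so that 8 of the 9 genes were matched. The Ptges window lies within the annotated span of that gene but in no annotated exon, and the Ptgs2 window overlaps exons of the non-coding gene Ptgs2os on the opposite strand.

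**Figure D1:**
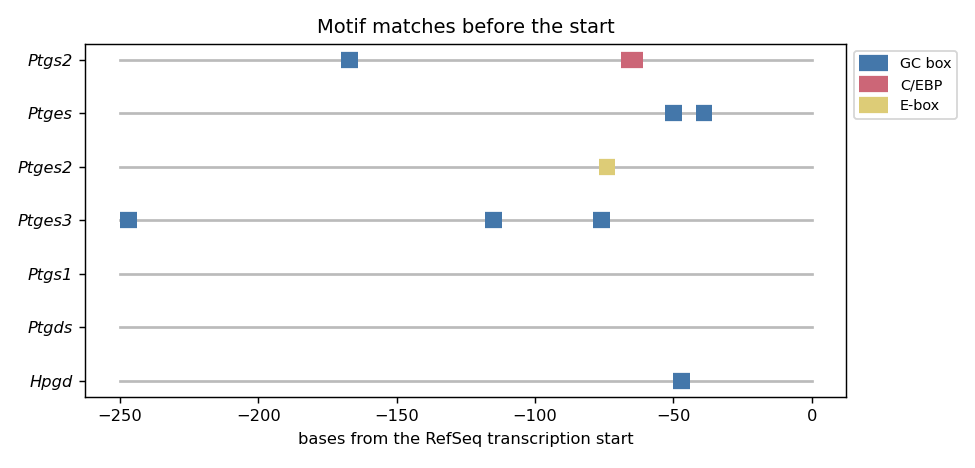
Positions of motif matches in the 250 bases before the RefSeq start of 7 of the genes, with the distance from the start in bases on the horizontal axis and 1 line per gene. The C/EBP match of Ptgs2 lies 69 bases before its start, and the lines of Ptgs1 and Ptgds carry no match.

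The mRNA of Ptgs2 is known for AU-rich words in its 3′ untranslated region that are bound by proteins controlling its decay. The GENCODE annotation gave 14 copies of the word ATTTA in the 2445 bases of this region. Of 21153 genes with an annotated 3′ untranslated region, 3.04% had at least as many. Pla2g4a, Ptges2, Ptges3 and Hpgd had 4 copies each, and Ptgs1, Ptges, Ptgis and Ptgds had 0. Per kb, Pla2g4a had the most, with 9.03 in a region of 443 bases, against 5.73 for Ptgs2. Hpgd had 4.77 per kb, Ptges3 3.37 and Ptges2 1.16. The word is short and its count grows with the length of the region, so the counts describe these letters only. The stretch of 30 bases with most copies of the word in Ptgs2 (GRCm38, chr1:150105794-150105823, plus strand, in exon 10) held 4, marked here in capitals, the first 3 of which share bases.
Ptgs2 AU-rich stretch: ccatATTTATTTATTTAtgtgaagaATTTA

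Among the 9 genes, levels differed widely, and FPKM allows them to be compared per length. In Ad-Con the order of mean levels was Ptgis, Ptges3, Ptgs1, Pla2g4a, Ptges2, Ptgs2, Ptgds, Ptges and Hpgd. The library values of neighbours in that order did not overlap, except those of Ptgs2 with Ptgds and of Ptgds with Ptges. In Ad-PDK4 the order was Ptgis, Ptges3, Pla2g4a, Ptgs1, Ptgs2, Ptges2, Ptges, Ptgds and Hpgd, and of the neighbours measured above the detection floor only Pla2g4a and Ptgs1 overlapped. The prostacyclin synthase gene Ptgis was thus the highest of the 9 in both groups. Pla2g4a, Ptgs2 and Ptges stood higher in the order of Ad-PDK4 than in that of Ad-Con, and Ptgs1, Ptges2 and Ptgds lower.

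**Figure D2:**
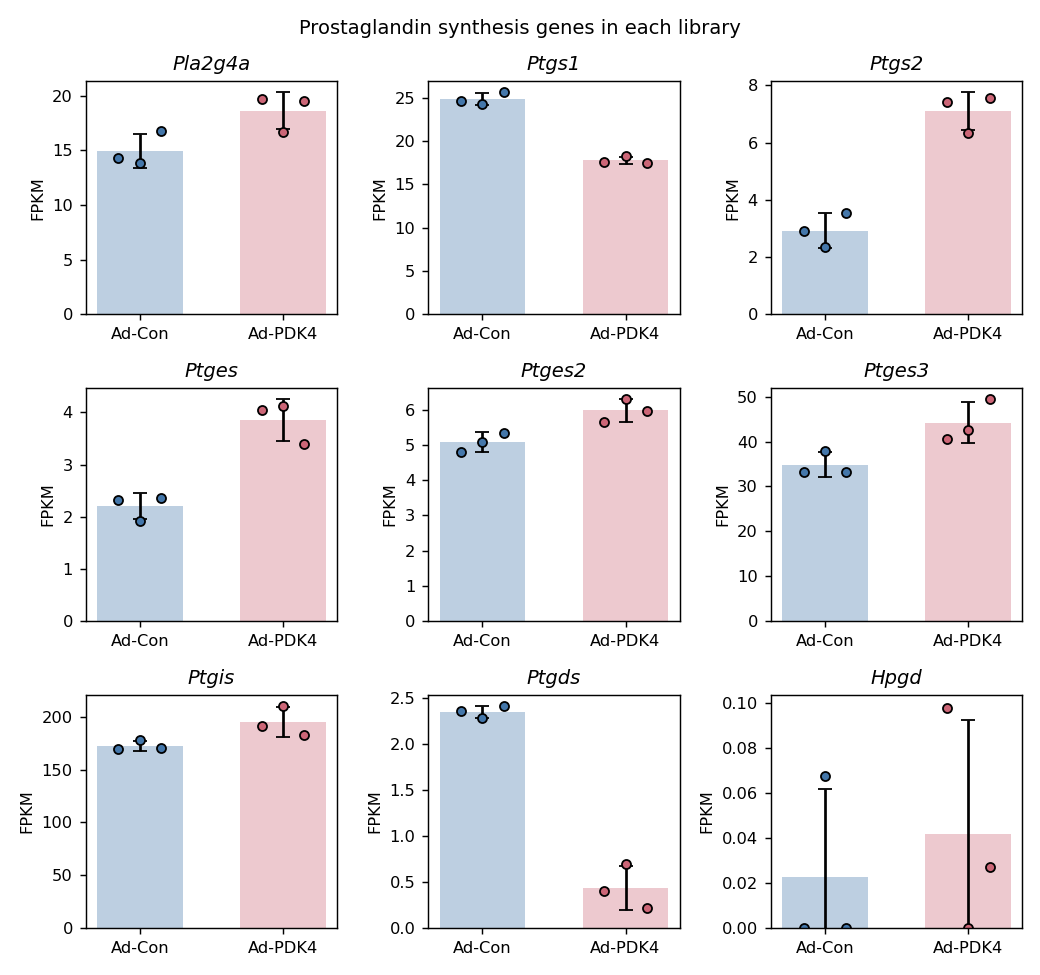
FPKM of the 9 genes in each library, 1 panel per gene with its own vertical axis starting at 0. Points are libraries, bars the group means and error bars the SD (n = 3 per group). The groups do not overlap for Ptgs1, Ptgs2, Ptges, Ptges2, Ptges3, Ptgis and Ptgds, and Hpgd lies below 0.1 FPKM throughout.

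Of the 9 genes, 8 passed the filter on low values (mean FPKM of at least 0.5 over the 6 libraries) and were tested. Of these, 6 were higher in Ad-PDK4 (Ptgs2, Ptges, Ptges3, Pla2g4a, Ptges2 and Ptgis) and 2 were lower (Ptgs1 and Ptgds). Calls were frequent in these data, since 21.8% of the 13423 genes tested were called higher and 20.8% lower (limma, adjusted p below 0.05). With a fold change of at least 2 as well, Ptgs2 was called higher and Ptgds lower, against 3.95% and 2.68% of all genes tested. Ptgds passed the filter through Ad-Con alone (means of 2.35 and 0.438 FPKM) and was counted as lower because of its level there. The groups did not overlap for 7 of the 8, all except Pla2g4a, against 54.3% of all genes tested. The median log2 fold change of the 8 was 0.27, against -0.0031 over all genes tested. All log2 fold changes are on the log2(FPKM + 0.1) scale, which understates those of low genes.

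**Figure D3:**
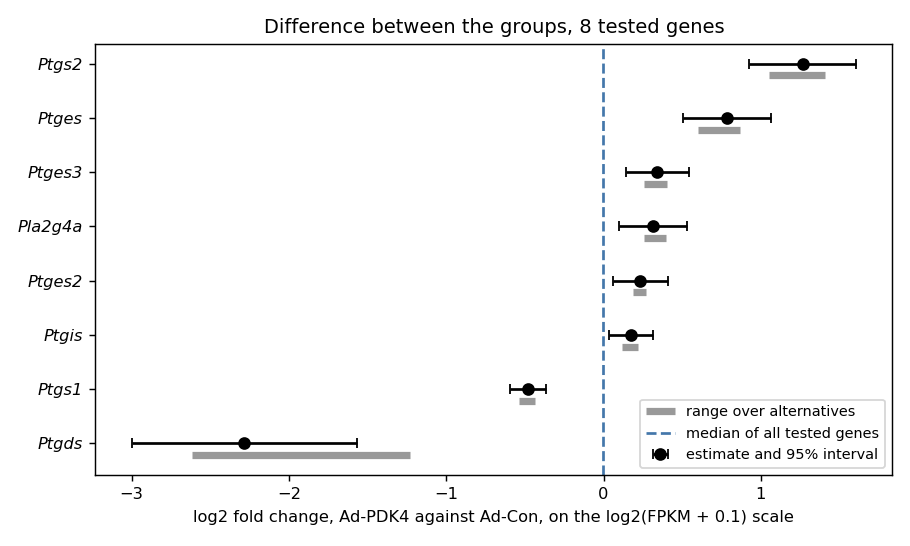
Log2 fold change (Ad-PDK4 against Ad-Con, horizontal axis) of the 8 genes tested, as black points with 95% confidence intervals. Grey bars span the values under the alternative analyses and the dashed line marks the median of all genes tested. The interval of each gene lies to 1 side of 0, from -2.28 for Ptgds to 1.27 for Ptgs2.

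The cyclooxygenase genes differed in opposite directions. Ptgs2 (ENSMUSG00000032487, chromosome 1, 150100031 to 150108227) encodes the inducible enzyme. It had 2.90, 2.34 and 3.54 FPKM in the Ad-Con libraries and 7.40, 6.34 and 7.55 in the Ad-PDK4 libraries, from 188 to 294 and 508 to 764 reads. Every Ad-PDK4 library lay above every Ad-Con library, and the means were 2.92 ± 0.602 and 7.10 ± 0.662 FPKM (SD, n = 3), a ratio of 2.43. The log2 fold change was 1.27 (SE 0.15, 95% interval 0.92 to 1.61, limma adjusted p = 0.000353). It kept its call in 16 of 16 alternative analyses.

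Ptgs1 (ENSMUSG00000047250, chromosome 2, 36230426 to 36252272), the constitutive cyclooxygenase gene, had 24.7, 24.3 and 25.6 FPKM in Ad-Con and 17.6, 18.3 and 17.5 in Ad-PDK4. The Ad-PDK4 libraries were all below the Ad-Con libraries, with little spread within either group. The log2 fold change was -0.48 (SE 0.05, 95% interval -0.59 to -0.36, limma adjusted p = 0.000196), and this call too was kept in 16 of 16 alternatives.

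Ptgs1 remained the more abundant cyclooxygenase mRNA in every library. The share of Ptgs2 in the summed FPKM of both genes was 10.5%, 8.79% and 12.1% in Ad-Con and 29.6%, 25.8% and 30.2% in Ad-PDK4. The sum itself was 27.8 ± 1.31 FPKM in Ad-Con and 24.9 ± 0.249 in Ad-PDK4 (SD, n = 3), so that the composition of the pair shifted while its total was slightly lower. These shares and sums are descriptions, given with no test.

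**Figure D4:**
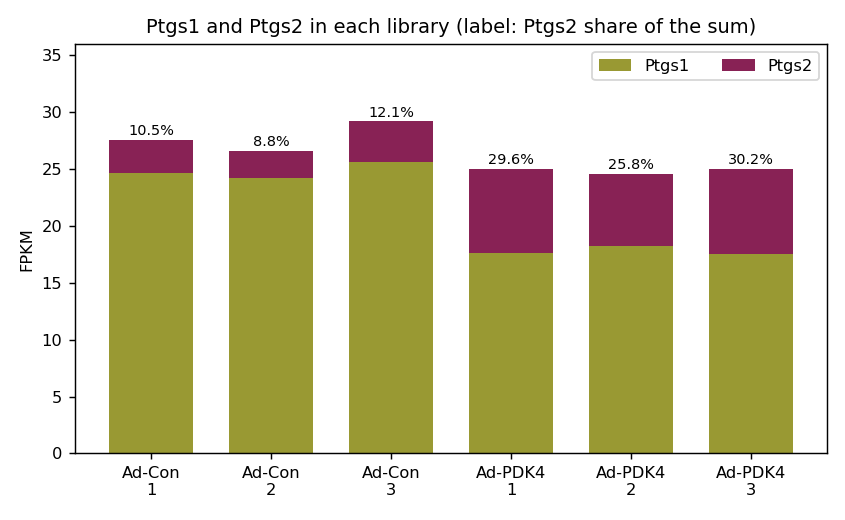
FPKM of Ptgs1 and Ptgs2 stacked for each of the 6 libraries, with the share of Ptgs2 in the sum printed above each bar. The share lies between 8.79% and 12.1% in the 3 Ad-Con libraries and between 25.8% and 30.2% in the 3 Ad-PDK4 libraries.

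Upstream of the cyclooxygenases, Pla2g4a (ENSMUSG00000056220, chromosome 1, 149829618 to 149961290) encodes the cytosolic phospholipase A2 that releases arachidonic acid. Its levels were 14.3, 13.8 and 16.8 FPKM in Ad-Con and 19.7, 16.7 and 19.5 in Ad-PDK4. The groups overlapped, since the lowest Ad-PDK4 library lay just below the highest Ad-Con library. The log2 fold change was 0.31 (SE 0.09, 95% interval 0.10 to 0.53, limma adjusted p = 0.0288). The call was lost in 4 of the 6 analyses that left out 1 library, those without Ad-Con replicate 1 (0.29) or 2 (0.26) and without Ad-PDK4 replicate 1 (0.27) or 3 (0.28).

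The gap between Pla2g4a and Ptgs2 held 3 annotated genes, of which only Ptgs2os had over 3 reads. Ptgs2os lies 67 bases before Ptgs2 on the opposite strand, and it had 7 to 21 reads in Ad-Con and 8 to 14 in Ad-PDK4, too few for the filter. A further non-coding gene, Ptgs2os2, lies 50815 bases beyond the far end of Ptgs2. It had 16, 14 and 10 reads in Ad-Con and 35, 40 and 58 in Ad-PDK4, or 0.408 ± 0.0795 and 1.31 ± 0.201 FPKM (SD, n = 3), with no overlap. It passed the filter through Ad-PDK4 alone, so no test is given. Both non-coding genes were picked after their values had been seen, and the strand setting of the counting is not given in the sources used here.

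The 3 prostaglandin E synthase genes were all higher in Ad-PDK4, by unequal amounts. Ptges (ENSMUSG00000050737, chromosome 2, 30889471 to 30929863) encodes the microsomal enzyme that is known to be induced together with Ptgs2 in inflammation. It had 2.32, 1.91 and 2.36 FPKM in Ad-Con and 4.04, 4.13 and 3.39 in Ad-PDK4. All Ad-PDK4 libraries were above all Ad-Con libraries, and the means were 2.20 ± 0.248 and 3.85 ± 0.405 FPKM (SD, n = 3), a ratio of 1.75. The log2 fold change was 0.78 (SE 0.12, 95% interval 0.50 to 1.06, limma adjusted p = 0.00146), and the call was kept in all 15 alternatives that tested the gene.

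Ptges3 (ENSMUSG00000071072, chromosome 10, 128058954 to 128077272) encodes the cytosolic E synthase, which is also the Hsp90 co-chaperone p23. It had 33.2, 38.0 and 33.3 FPKM in Ad-Con and 40.6, 42.7 and 49.5 in Ad-PDK4. The groups did not overlap, and the log2 fold change was 0.34 (SE 0.09, limma adjusted p = 0.0153). The call was lost without Ad-Con replicate 1 (0.31) or replicate 3 (0.31). Of the longest transcript, 24.2% is shared with 2 pseudogenes in stretches of 50 bases, so its count is less certain than those of the other genes.

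Ptges2 (ENSMUSG00000026820, chromosome 2, 32395896 to 32405772) encodes a membrane-associated E synthase. Levels were 4.79, 5.09 and 5.34 FPKM in Ad-Con and 5.66, 6.30 and 5.97 in Ad-PDK4, with no overlap between the groups. Its log2 fold change was 0.23 (SE 0.08, 95% interval 0.06 to 0.41, limma adjusted p = 0.0388), but the call was lost whichever of the 6 libraries was left out, with values of 0.19 to 0.27.

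Ptges3 made up most of the summed FPKM of the 3 E synthase genes, at 82.7% in Ad-Con and 81.7% in Ad-PDK4 on average. The share of Ptges was 5.77%, 4.25% and 5.75% in Ad-Con and 8.04%, 7.78% and 5.75% in Ad-PDK4. Only the third Ad-PDK4 library had a share of Ptges at the level of the Ad-Con libraries. Within its group, that library had both the highest Ptges3 and the lowest Ptges.

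Ptgis (ENSMUSG00000017969, chromosome 2, 167191805 to 167240604), the gene of prostacyclin synthase, gave the largest signal of the 9, with 7924 to 10391 reads per library. It had 170, 178 and 170 FPKM in Ad-Con and 192, 211 and 183 in Ad-PDK4. The groups did not overlap, but the step between the highest Ad-Con and the lowest Ad-PDK4 library was small. The log2 fold change was 0.17 (SE 0.06, 95% interval 0.03 to 0.31, limma adjusted p = 0.0483), close to the threshold. Of the 6 analyses that left out 1 library, the call was kept without Ad-PDK4 replicate 3 and lost in the other 5, with values down to 0.12 without Ad-PDK4 replicate 2. The ratio of Ptgis to Ptges was 73.2, 93.2 and 72.2 in Ad-Con and 47.5, 51.0 and 54.1 in Ad-PDK4, so that it was lower in every Ad-PDK4 library. This is a description with no test.

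Ptgds (ENSMUSG00000015090, chromosome 2, 25466709 to 25470046), the gene of the lipocalin-type prostaglandin D synthase, had the largest difference of the 9. It had 79, 66 and 72 reads in Ad-Con and 12, 20 and 8 in Ad-PDK4, or 2.35, 2.28 and 2.41 against 0.400, 0.693 and 0.220 FPKM. The Ad-Con libraries were close to each other and all above the Ad-PDK4 libraries. The mean of Ad-PDK4 (0.438 FPKM) was below the filter on its own, so the gene was tested because of its level in Ad-Con. The mean in Ad-Con was 5.36 times that in Ad-PDK4, and the log2 fold change was -2.28 (SE 0.31, limma adjusted p = 0.00076). The call was kept in all 15 alternatives that tested the gene, no filter included, while a pseudocount of 1 instead of 0.1 reduced the value to -1.23.

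The genes whose values over the 6 libraries were most like those of Ptgds were sought among the 7731 genes with a mean of at least 5 FPKM. Likeness was the root mean square difference of centred log2 values, smallest first. They were the mitochondrial tRNA gene mt-Tl2 (0.296), the matrix gene Ltbp4 (0.334), the lysosomal gene Cd68 (0.371), the RNA-binding protein gene Mex3b (0.380) and the mitochondrial tRNA gene mt-Te (0.404). Being chosen for likeness to Ptgds, all 5 were bound to be lower in Ad-PDK4, so their direction is no separate result. Their log2 fold changes ran from -2.32 for Mex3b to -1.74 for Cd68. Cd68 is also a macrophage marker. Of the 10 macrophage markers examined, Ptprc, Tyrobp, C1qa and C1qb had 0 reads in every library, as had Itgam, which shares 73.7% of its transcript with an overlapping gene, so that its 0 may come from the counting. Csf1r had 11, 23 and 35 reads in Ad-Con and 56, 62 and 61 in Ad-PDK4, and Lyz2 had 42, 30 and 40 against 47, 40 and 65. Csf1r overlaps an abundant gene on the opposite strand, and Lyz2 shares 44.6% of its transcript with another gene, so these reads are uncertain. The part of these markers in the values of Ptgds was not tested.

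Hpgd (ENSMUSG00000031613, chromosome 8, 56294585 to 56321043) encodes the dehydrogenase that inactivates prostaglandins. It had 0, 2 and 0 reads in Ad-Con and 3, 0 and 1 in Ad-PDK4. These counts lie at or under a floor of 3 reads, the limit that a count of 0 allows for counting error only, so no fold is given and a difference was not detectable at this depth.

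The rest of the pathway was read from lists of genes, written with earlier results of these data known. Over all 13423 genes tested, 21.8% were called higher and 20.8% lower. No list was tested as a set. The supply of arachidonic acid comes first. Of 20 other phospholipase A2 genes, 6 were tested, 1 was higher and 1 lower (median log2 fold change -0.05). Pla2g15, the lysosomal phospholipase, rose by a log2 fold change of 0.25 (adjusted p = 0.0123). Pnpla8, a calcium-independent phospholipase, fell by 0.28 on the log2 scale (adjusted p = 0.0178), a call lost without Ad-Con replicate 1 (-0.26) or 2 (-0.26) or Ad-PDK4 replicate 1 (-0.28). A further gene, Pla2g4c, of the same cytosolic family as Pla2g4a, was under the filter and was picked after its values were seen. It had 1, 0 and 4 reads in Ad-Con and 66, 43 and 85 in Ad-PDK4, and with no filter its log2 fold change was 2.99 (limma adjusted p = 0.000788), a size that depends on the pseudocount. Pla2g7, also under the filter and picked in the same way, went in the other direction, with 16, 7 and 10 reads against 1, 1 and 2 (with no filter, -1.26, limma adjusted p = 0.0282).

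Genes that bind arachidonic acid into lipids or free it from them differed in both directions. Of 10 listed, 9 were tested, 1 was higher and 4 were lower (median log2 fold change -0.24). The shares over all genes tested were 21.8% higher and 20.8% lower. Acsl4, an acyl-CoA synthetase that prefers arachidonic acid, rose by 0.34 (adjusted p = 0.0053). Mgll, the monoacylglycerol lipase, which passed the filter through Ad-Con (0.953 against 0.384 FPKM), fell by 1.2 on the log2 scale (adjusted p = 0.0242; -0.51 with a pseudocount of 1), a call lost without Ad-Con replicate 1 (-1.17), 2 (-1.26) or 3 (-1.17). Lpcat2, a lysophospholipid acyltransferase, fell by 0.82 (adjusted p = 0.000393) and Acsl3 by 0.38 (adjusted p = 0.0074).

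Of 7 other terminal prostanoid synthase genes, 4 were tested, 2 were higher and 0 lower, with 0 lower also at an unadjusted p below 0.05 and by limma-voom. Among all genes tested, 21.8% were called higher. Akr1b3, an aldose reductase that can make prostaglandin F2α, rose from 12.7 ± 0.833 to 24.4 ± 1.38 FPKM (SD, n = 3), a log2 fold change of 0.94 (adjusted p = 3.3e-05). Cbr3, a carbonyl reductase, rose by 0.30 (adjusted p = 0.0198), a call lost without Ad-Con replicate 1 (0.29) or 2 (0.27). The thromboxane synthase gene Tbxas1 and the haematopoietic D synthase gene Hpgds had at most 7 and 6 reads in any library.

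Receptor mRNAs were scarce. Of 9 prostanoid receptor genes only Tbxa2r, the thromboxane receptor, passed the filter. It had 24, 14 and 21 reads in Ad-Con and 56, 50 and 67 in Ad-PDK4, with no overlap. On the log2 scale the difference was 1.38 (SE 0.19, limma adjusted p = 0.00093), and a pseudocount of 1 reduced it to 0.73. The prostaglandin F receptor gene Ptgfr had 18, 7 and 17 reads in Ad-Con and 28, 30 and 52 in Ad-PDK4, and with no filter its log2 fold change was 0.85 (limma adjusted p = 0.106). The E receptor genes Ptger1 (3 to 13 reads) and Ptger4 (6 to 18 reads), the prostacyclin receptor gene Ptgir (5 to 11 reads) and the D receptor gene Ptgdr2 (3 to 11 reads) overlapped between the groups. Ptger1, Ptger4 and Ptgdr2 share genomic positions with abundant genes on the opposite strand, so their few reads are uncertain. Ptgdr had 0 reads in every library. Of the E receptor genes, Ptger2 had 0, 0 and 0 reads in Ad-Con and 1, 4 and 7 in Ad-PDK4 (with no filter, limma adjusted p = 0.149). Ptger3 had at most 3 reads in any library.

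The 6 genes of prostaglandin transport and inactivation were all tested, 2 were higher and 3 lower. Among all genes tested, 21.8% were called higher and 20.8% lower. Slco3a1, an organic anion transporter that carries prostaglandins, rose from 1.60 ± 0.12 to 8.03 ± 0.72 FPKM (SD, n = 3), a log2 fold change of 2.25 (SE 0.10, adjusted p = 1.8e-06). The prostaglandin uptake transporter gene Slco2a1 rose by 0.26 (adjusted p = 0.0476), a call lost in 9 of 16 alternatives. Among these were the replicate block (adjusted p = 0.084) and the analyses without any 1 library other than Ad-PDK4 replicate 1, with values of 0.18 to 0.29. Abcc4, which exports prostaglandins, fell by 0.80 (adjusted p = 4.7e-05). The reductase gene Ptgr1 fell by 0.45 (adjusted p = 0.0035) and the reductase gene Zadh2 by 0.19 (adjusted p = 0.0148), the latter a call lost without Ad-Con replicate 1 (-0.18) or Ad-PDK4 replicate 1 (-0.18).

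Arachidonic acid also feeds the lipoxygenase and epoxide routes. Of 11 genes listed for these, 3 were tested and 3 were lower, and none was higher by limma at an adjusted or an unadjusted p below 0.05 (0 also by limma-voom). The share called lower among all genes tested was 20.8%. Ephx2, the soluble epoxide hydrolase, fell from 34.2 ± 1.18 to 11.1 ± 1.12 FPKM (SD, n = 3), by 1.62 on the log2 scale (adjusted p = 2.9e-06). Alox12, a 12-lipoxygenase, passed the filter through Ad-Con (1.34 against 0.378 FPKM). It fell by 1.58 (adjusted p = 0.0013), or -0.76 with a pseudocount of 1, and Lta4h, the leukotriene A4 hydrolase, fell by 0.81 (adjusted p = 7.4e-06). The leukotriene genes Alox5 and Alox5ap had at most 7 and 13 reads.

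**Figure D5:**
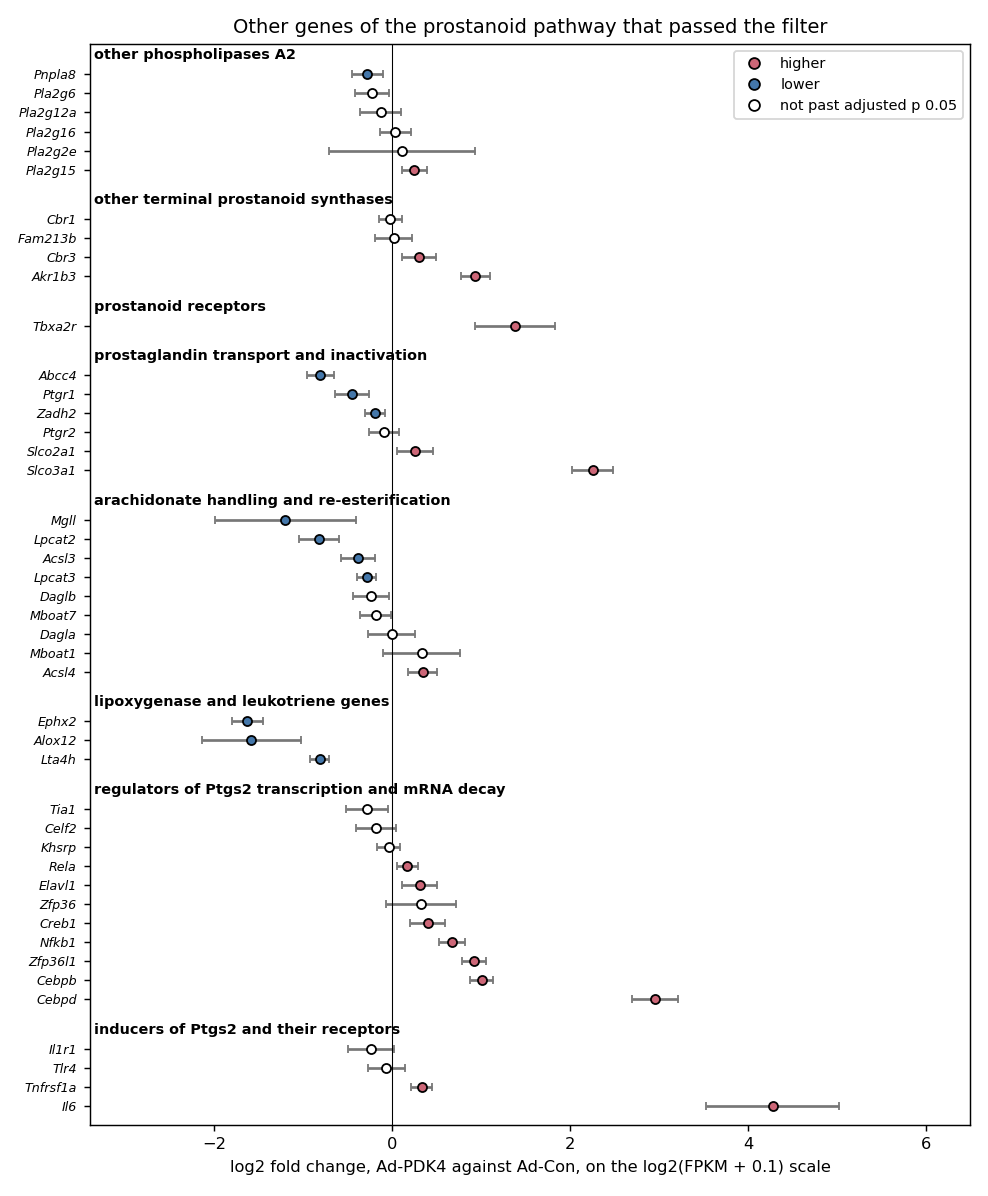
Log2 fold change (Ad-PDK4 against Ad-Con, horizontal axis) with 95% confidence intervals for the other pathway genes that passed the filter, grouped by list. Red points were called higher, blue points lower, and open points did not pass an adjusted p of 0.05. Il6 (4.28), Cebpd (2.95) and Slco3a1 (2.25) lie furthest to the right, and the 3 lipoxygenase and epoxide genes lie to the left of 0. Il6 passed the filter through Ad-PDK4 alone, and Alox12 and Mgll through Ad-Con.

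Genes known to act on Ptgs2 were described last. Of 11 regulators of its transcription or mRNA decay, 7 were higher and 0 lower (median log2 fold change 0.33). The shares among all genes tested were 21.8% and 20.8%. At an unadjusted p below 0.05, 1 was lower, and limma-voom called 2 lower. Cebpd rose from 2.98 ± 0.225 to 23.9 ± 3.43 FPKM (SD, n = 3), a log2 fold change of 2.95 (SE 0.11, adjusted p = 8.4e-07). Cebpb rose from 49.9 ± 1.97 to 100.4 ± 4.84 FPKM (SD, n = 3), a log2 fold change of 1.01 (adjusted p = 6.5e-06). Both encode C/EBP transcription factors, and the role of the C/EBP letters shown above for Ptgs2 was not tested. Zfp36l1, whose protein binds AU-rich words and promotes mRNA decay, rose by 0.92 (adjusted p = 1.6e-05). Cebpd and Cebpb overlap the genes Spidr and Tmem189 on the opposite strand.

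Of 8 inducers of Ptgs2 and their receptors, 4 were tested, 2 were higher and 0 lower, with 0 lower also at an unadjusted p below 0.05 and by limma-voom. The share called higher among all genes tested was 21.8%. Il6, an inflammatory cytokine gene, had 4, 1 and 2 reads in Ad-Con and 114, 89 and 210 in Ad-PDK4. The groups were far apart. The gene passed the filter through Ad-PDK4 alone, with means of 0.0499 and 2.86 FPKM. It was thus tested, and counted among the 2 higher, because of its level there. Its log2 fold change was 4.28 (SE 0.32, limma adjusted p = 3.7e-05), ranging from 1.85 with a pseudocount of 1 to 5.65 with a pseudocount of 0.01. The TNF receptor gene Tnfrsf1a rose by 0.33 (adjusted p = 0.0012). The cytokine genes Il1b and Tnf had 0 and at most 2 reads, so a difference in them was not detectable at this depth.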

How the data were processed

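RNA-seq of 6 libraries of mouse cells labelled as VSMCs was analysed, 3 labelled Ad-Con and 3 labelled Ad-PDK4. Groups came from the treatment label and replicate numbers from the titles. The authors deposited FPKM per gene and library, with gene lengths and coordinates and without pooling replicates. The submitters' processing notes name CASAVA 1.8, fastp, HISAT2 2.0.5, featureCounts 1.5.0-p3 and DESeq2 1.20.0 without stating the role of each. The labels name a SMARTER kit and the study's methods a NEBNext Ultra kit. The annotation release and the strand setting are not given in the sources used here. The notes name GRCm39, but 98.3% of the 54495 gene identifiers found in GENCODE M21 had the GRCm38 coordinates given there, among them all 9 genes, and GRCm38 is used throughout.

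Multiplying FPKM by gene length recovered whole numbers of counted fragments, here called reads, for 100% of the values above 0 (within 0.01). The floor of 3 reads covers counting error only, because PCR copies of a molecule are counted as separate reads. FPKM is not a count, so log2(FPKM + 0.1) was compared between the groups with limma 3.58.1 (R 4.3.3, empirical Bayes with trend and robust, no covariates) over the 13423 genes with a mean of at least 0.5 FPKM, with Benjamini-Hochberg adjustment over all of them. Every adjusted p is from this fit unless another is named. The threshold of a call was an adjusted p of 0.05. The fit was tested on simulated data. Promoter windows are from RefSeq (GRCm38.p6) and 3′ untranslated regions from GENCODE M21.

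The 9 genes and all gene lists were chosen with earlier results of these data known, and the lists were written from general knowledge. Named were the 9 genes, Pdk4, receptors with at least 10 reads in a library, up to 3 rises and 3 falls among the calls of each pathway list, and the 5 genes most like the member with the largest absolute fold change. Names outside this rule (Pla2g4c, Pla2g7, Ptgs2os, Ptgs2os2, Tbxas1, Hpgds, Ptgdr, Ptger2, Ptger3, Alox5, Alox5ap, Il1b, Tnf, Spidr, Tmem189 and the cell type markers) were picked after their values were seen or come from the marker lists. Alternatives were other pseudocounts, filters and scalings, plain moderation, limma-voom on the reads, a replicate block and leaving out each library. A genome sequence and protein sequences were not used here.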

Additional observations from a re-analysis of the deposited data

How the results depend on the processing

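Among the 16 alternatives, 6 of which left out 1 library each, no result reversed its direction. Ptgs1 and Ptgs2 kept their calls in 16 of 16, and Ptges and Ptgds in the 15 that tested them, since both have a mean below 5 FPKM. The smaller rises depended on the setting. With no filter, which tests 25202 genes, the log2 fold changes of Pla2g4a (0.31), Ptges2 (0.23) and Ptgis (0.17) were no longer past the threshold. Quantile normalization had the same effect (0.26, 0.18 and 0.19), and moderation without trend and robust did so for Pla2g4a (0.31) and Ptgis (0.17). Over the analyses without 1 library, the values ranged from 0.26 to 0.40 for Pla2g4a, 0.19 to 0.27 for Ptges2, 0.26 to 0.41 for Ptges3 and 0.12 to 0.22 for Ptgis. The number of the 9 genes called higher was 6, against 3 with no filter, 3 under quantile normalization and 2 to 4 without 1 library. The number called lower was 2, against 1 with a mean of at least 5 FPKM, where Ptgds was not tested. Apart from construction (more genes or fewer libraries), the cause was not tested. Over all genes tested, calls higher and lower were 2928 and 2798, against 3363 and 2432 after rescaling to TPM and 2531 and 3132 after quantile normalization. Same-numbered libraries of the groups did not deviate together (correlations over genes, -0.05, -0.03 and -0.0013). Over all genes there was thus no sign that the numbers pair the samples, but so few libraries cannot exclude a pairing. With the replicate block, 2759 genes were called higher and 2626 lower, and of the named genes Slco2a1 lost its call (0.26). Of the other values, counts per list and named pathway genes, 566 kept direction and call, 19 lost the call and 33 counts moved. Depth limits Hpgd, most receptors and the cytokine genes, which had too few reads to test.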

Other observations

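Of the remaining marker lists, the 10 macrophage markers summed to 15 to 17.9 FPKM in Ad-Con and 5.92 to 7.44 in Ad-PDK4, most of it Cd68, which was called lower. The other macrophage markers with over 3 reads had higher means in Ad-PDK4, Csf1r with 0.258 ± 0.143 and 0.640 ± 0.0804 FPKM and Lyz2 with 1.51 ± 0.195 and 1.98 ± 0.25 FPKM (SD, n = 3). Csf1r was under the filter (with no filter, limma adjusted p = 0.0635) and Lyz2 did not pass the test (limma adjusted p = 0.0791). The reads of both are uncertain, because Csf1r overlaps an abundant gene and Lyz2 shares sequence with another gene. The 6 endothelial markers summed to 0.617 to 0.798 and 0.885 to 1.18 FPKM, the 5 mast cell markers to 0.804 to 0.943 and 0.526 to 0.698 FPKM, and the 4 adipocyte markers to 0.190 to 0.328 and 0.207 to 0.369 FPKM. Of these lists, Cldn5, Fcer1a and Adipoq had 0 reads in every library, while other genes were detected. Kdr, endothelial, had 121, 71 and 82 reads in Ad-Con and 156, 174 and 141 in Ad-PDK4 (log2 fold change 0.68, limma adjusted p = 0.0645). The mast cell marker Kit, which passed the filter through Ad-Con, had 163, 126 and 116 against 51, 82 and 49 (-1.01, limma adjusted p = 0.0318). Cpa3, also of mast cells and under the filter, had 0, 0 and 1 against 5, 0 and 12. The part of these markers in the differences of the prostaglandin genes was not tested.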
